A study of Mus musculus with 75 samples.

Results

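Ttr, Enpp2, Sostdc1, Aqp1, Slc4a5, Clic6, Folr1, Kl, Prlr and Otx2, genes that mark the epithelium of the choroid plexus, were followed through 26 RNA libraries of mouse brain. They were taken as a named list of 10, of 37310 gene identifiers in the cortex and nuclei files and 55487 in the hippocampus files, and each of the 10 had 1 identifier present in both annotations. These are ENSMUSG00000061808 (Ttr), ENSMUSG00000022425 (Enpp2), ENSMUSG00000036169 (Sostdc1), ENSMUSG00000004655 (Aqp1), ENSMUSG00000068323 (Slc4a5), ENSMUSG00000022949 (Clic6), ENSMUSG00000001827 (Folr1), ENSMUSG00000058488 (Kl), ENSMUSG00000005268 (Prlr) and ENSMUSG00000021848 (Otx2). The mice were C57BL/6 at postnatal day 21. The mutants concern DNMT3A, a DNA methyltransferase of which brain makes a longer and a shorter form, DNMT3A1 and DNMT3A2. Cerebral cortex had 3 libraries of genotype Dnmt3a1-/-, 2 of Dnmt3a2-/- and 3 of the genotype spelled Dnmt3a1_delta_N, against 8 wild type libraries. The wild type cortex libraries carry 3 numbering series in their titles. The plain series (3 libraries) was set against Dnmt3a1-/-, the r series (2) against Dnmt3a2-/- and the n series (3) against Dnmt3a1_delta_N, a tie that the labels do not state. Hippocampus had 3 Dnmt3a1-/- and 3 wild type libraries. Nuclei of cortical neurons, sorted with an antibody against the neuronal protein NeuN, had 2 libraries labelled Dnmt3a1-/- and 2 wild type libraries. The labels name no Cre driver, and they are silent on whether replicate libraries are from different mice.

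The choroid plexus is a sheet of epithelial cells folded around blood vessels inside the brain ventricles. It secretes cerebrospinal fluid, carries nutrients and hormones into it and releases carrier proteins. The plexus of the lateral ventricle lies against the hippocampus and below the cortex, and it is neither cortical nor hippocampal tissue. Its genes serve secretion (Ttr, Enpp2, Sostdc1), movement of water, ions and folate (Aqp1, Slc4a5, Clic6, Folr1), reception of hormones (Kl, Prlr) and the identity of the epithelium (Otx2).

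Gene totals ran from 8.7 to 39.0 M counts per library (M, mega), and levels are given as CPM, counts per M of that total. Dnmt3a, both isoforms counted together, fell in Dnmt3a1-/- cortex (log2 fold change -1.02 ± 0.07 SE, adjusted p = 1.2e-05, edgeR) and hippocampus (-1.04 ± 0.09, adjusted p = 0.00011). The nuclei libraries labelled Dnmt3a1-/- held 382 and 369 CPM of it, those of wild type nuclei 405 and 399 CPM, so the count does not separate these labels. The tissue labels were read against marker lists (calls at an adjusted p under 0.05, edgeR). In wild type hippocampus 9 of 10 hippocampal genes were called higher than in wild type cortex, beside 42% of all genes called either way. Oligodendrocyte, astrocyte, microglia and endothelium genes, 28 of 28, were called lower in wild type nuclei than cortex, as were 39.9% of all genes. Of 6 neuron genes in nuclei, 1 was called higher and 1 lower, with a median log2 fold change of 0.09. The cortex libraries of the plain series and of Dnmt3a1-/- list no reads dropped for low alignment quality, and those of the r and n series, Dnmt3a2-/- and Dnmt3a1_delta_N do, and the cause was not tested. Each mutant shares this trait with the wild type series it was set against.

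Ttr encodes transthyretin, the carrier of thyroxine and of the retinol-binding protein that the plexus secretes into the cerebrospinal fluid. Cortex of Dnmt3a1-/- held 1920, 784 and 1130 CPM of Ttr, against 489, 705 and 110 CPM in the plain wild type series. In Dnmt3a2-/- cortex it stood at 10.8 and 1520 CPM, against 254 and 18.5 CPM in the r series. In Dnmt3a1_delta_N cortex it stood at 905, 668 and 76.1 CPM, against 72.3, 380 and 27.1 CPM in the n series. The lowest and the second highest of all 16 cortex values thus belong to 1 genotype, Dnmt3a2-/-, and the 8 wild type cortex libraries alone span 18.5 to 705 CPM, a 38.1-fold range.

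Dnmt3a1-/- hippocampus held 507, 1720 and 44.2 CPM of Ttr, against 57.6, 84.4 and 68.6 CPM in wild type. The nuclei libraries labelled Dnmt3a1-/- held 2.51 and 0.119 CPM (98 and 3 counts), against 4.03 and 8.84 CPM in wild type (142 and 313 counts). Dissected libraries therefore held Ttr in widely unequal amounts within every group but wild type hippocampus, where the highest was 1.47 times the lowest, and nuclei held it at or below 8.84 CPM.

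Ordered by group mean, Ttr was at 1280 ± 585 CPM in Dnmt3a1-/- cortex (SD, n = 3), 764 ± 1070 in Dnmt3a2-/- cortex (n = 2), 756 ± 864 in Dnmt3a1-/- hippocampus (n = 3) and 550 ± 427 in Dnmt3a1_delta_N cortex (n = 3). Then came 435 ± 301 CPM in the plain series (n = 3), 160 ± 192 in the n series (n = 3), 136 ± 166 in the r series (n = 2) and 70.2 ± 13.5 in wild type hippocampus (n = 3). Wild type nuclei at 6.44 ± 3.40 CPM and nuclei labelled Dnmt3a1-/- at 1.31 ± 1.69 CPM (n = 2 each) came last. Each group overlapped the next in this order except wild type hippocampus, whose libraries all lay above wild type nuclei, and wild type nuclei, whose libraries lay above those labelled Dnmt3a1-/-. All 4 mutant groups of dissected tissue had higher means than every wild type group, with an SD as large as or near the mean in 3 of those 4.

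**Figure D1:**
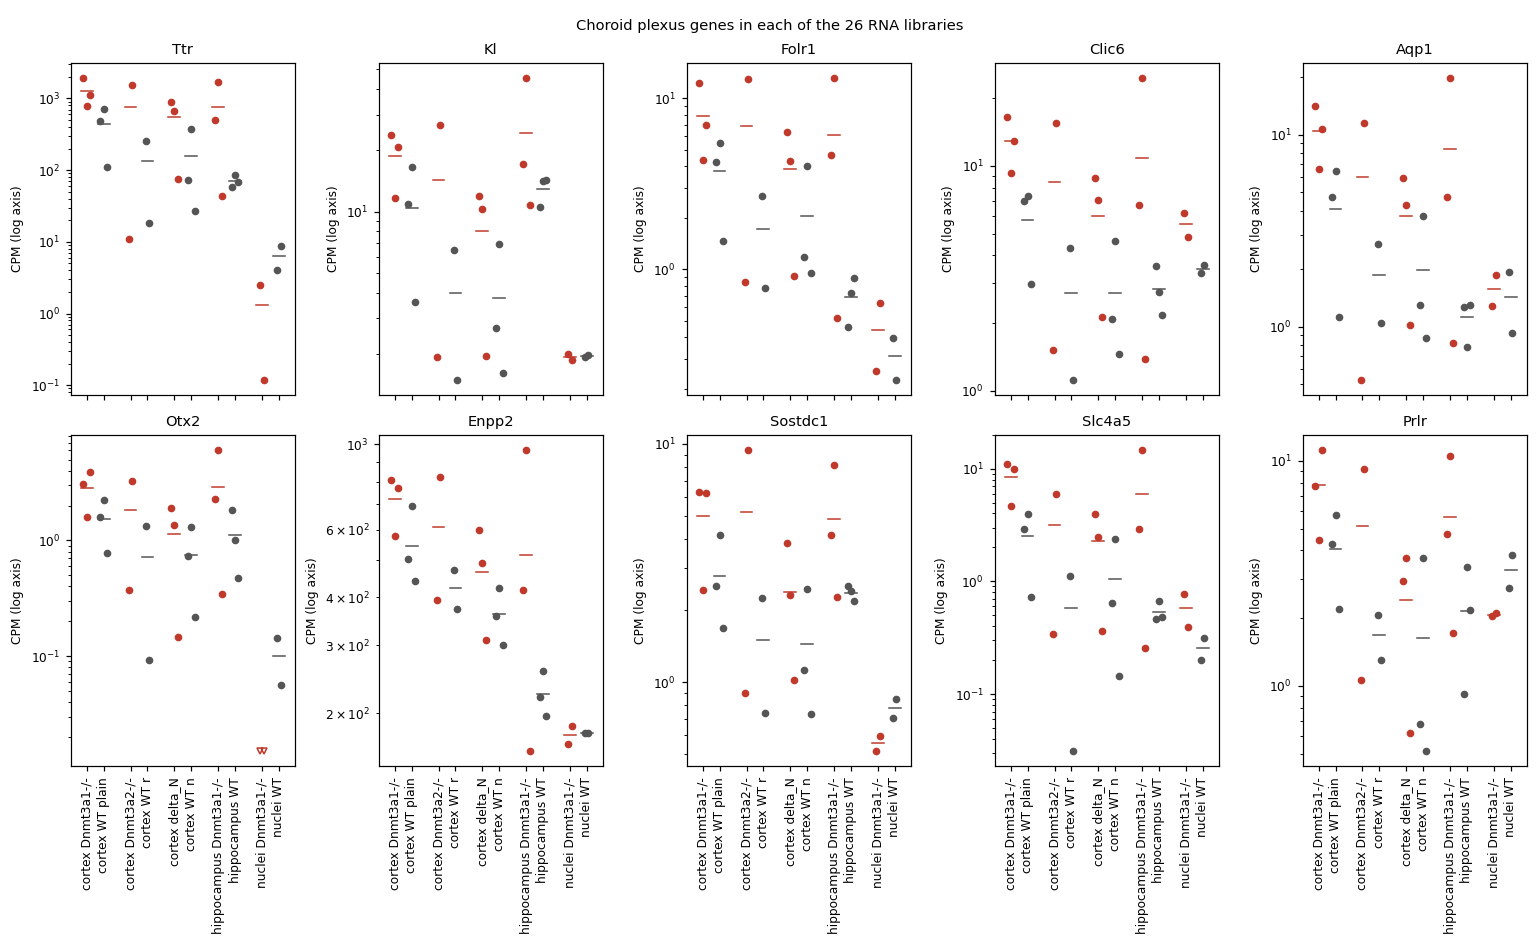
Level of each of the 10 genes in CPM (log axis) in the 26 RNA libraries. Each point is 1 library, red for mutants and grey for wild type, each mutant group stands left of its wild type group, and bars are group means; open triangles at the bottom mark the 2 libraries with 0 Otx2 counts. Ttr runs from 10.8 to 1920 CPM in cortex, and the same libraries are high or low for the other genes.

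The other 9 genes were high in the libraries that were high in Ttr and low where it was low. Over the 16 cortex libraries, on log2(CPM + 0.5), Pearson's r with Ttr ran from 0.855 for Enpp2 to 0.971 for Clic6, and Spearman's rho from 0.882 for Prlr to 0.988 for Clic6. The permutation test (100000 resamples, two-sided) gave p = 1e-05, the smallest it can give, for each rho and for 7 of the 9 r, with p = 5e-05 for Enpp2 and 2e-05 for Prlr. Adjusted over the 9 genes, the highest of these values was 5e-05. The resampling shuffled libraries across groups and numbering series alike. The genes were chosen as markers of the same tissue with earlier results of these data known, so these p-values are not independent evidence. Without the 2 libraries farthest from the median of Ttr, Dnmt3a2-/- replicate 1 and wild type r replicate 2, r was 0.916 to 0.983.

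The relation was also read within the numbering series. Among the 6 libraries of the plain series and Dnmt3a1-/-, r was 0.857 (Sostdc1) to 0.997 (Aqp1), and among the 6 of the n series and Dnmt3a1_delta_N it was 0.911 (Otx2) to 0.990 (Clic6). The r series and Dnmt3a2-/- together have 4 libraries, too few for a correlation. With group means removed, r over the 16 libraries was 0.91 to 0.99, so the genes also varied together among replicates of a group. These libraries share the scaling to their totals, of which Ttr takes at most 0.192%. In bulk tissue more cells of a type and more RNA per cell cannot be told apart.

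How much of each gene is read where Ttr is absent was described with a straight line of CPM on Ttr CPM over the 16 cortex libraries. Slc4a5, an electrogenic sodium bicarbonate cotransporter, had a level of 0.0869 ± 0.45 CPM (SE) at Ttr of 0, or 2.76% of its mean, and 5.40 ± 0.56 CPM were added per 1000 CPM of Ttr. Aqp1, the water channel of the plexus, and Folr1, a folate receptor that moves folate into the cerebrospinal fluid, kept 0.706 ± 0.27 and 0.712 ± 0.33 CPM at Ttr of 0, 14.7% and 16.3% of their means. For Kl, Clic6, Sostdc1, Prlr and Otx2 this share was 22% to 32%. The library highest in Ttr, Dnmt3a1-/- replicate 1, weighs on these levels. Without it they were 0.153 CPM for Slc4a5 (5.81%), 1.40 for Kl, 0.520 for Sostdc1 and 0.722 for Prlr, and the share for Kl, Clic6, Sostdc1, Prlr and Otx2 was 15.5% to 24.4%.

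Enpp2 stood apart from the rest in this respect. It encodes autotaxin, a secreted enzyme that makes lysophosphatidic acid and that oligodendrocytes also express. Its level at Ttr of 0 in cortex was 361 ± 23 CPM, 69.4% of its mean, with 282 ± 28 CPM added per 1000 CPM of Ttr. It ran from 301 CPM in wild type n replicate 3 to 824 CPM in Dnmt3a2-/- replicate 2, a 2.73-fold range beside 179-fold for Ttr and 352-fold for Slc4a5, whose lowest value rests on 1 count. Most of the Enpp2 signal in cortex was thus not tied to Ttr on this line.

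In the 6 hippocampus libraries, a line added after the data were seen, the split between the genes was another. Kl, encoding klotho, the co-receptor for the hormone FGF23, kept 10.5 ± 1.2 CPM at Ttr of 0 in hippocampus, against 2.19 ± 0.90 CPM in cortex, and Sostdc1, a secreted antagonist of BMP and Wnt signals, kept 2.16 ± 0.086 CPM, against 0.832 ± 0.39 CPM. Enpp2 kept less in hippocampus, 179 ± 15 CPM, than in cortex. Aqp1 and Slc4a5 kept 0.133 ± 0.33 and -0.287 ± 0.31 CPM, no more than their errors. The hippocampus lines lean on 1 library, Dnmt3a1-/- replicate 2. The wild type hippocampus libraries alone held 10.5, 14.1 and 14.3 CPM of Kl at 57.6 to 84.4 CPM of Ttr.

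**Figure D2:**
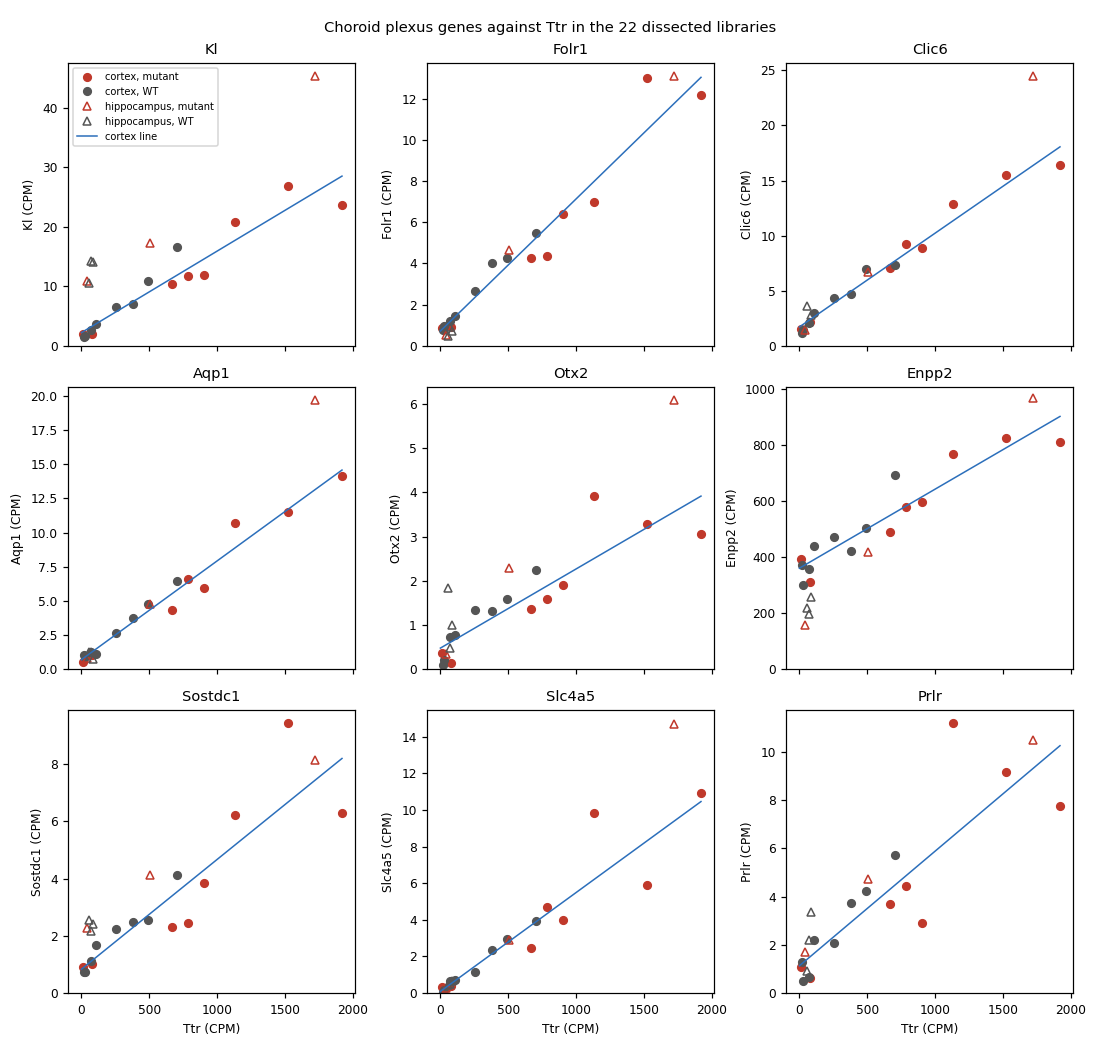
Level of 9 choroid plexus genes against that of Ttr, both in CPM, in the 22 dissected libraries. Filled circles are cortex and open triangles hippocampus, red for mutants and grey for wild type, and the blue line is the least squares line over the 16 cortex libraries. Enpp2 starts near 361 CPM at Ttr of 0, and the hippocampus libraries lie above the cortex line for Kl.

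In the Dnmt3a1-/- cortex, all 10 genes had positive fold changes over the plain wild type series and 0 were called by edgeR's quasi-likelihood test at an adjusted p under 0.05. The test called 17.9% of the 15933 genes. At an unadjusted p under 0.05 there were 2 of the 10, beside 32.4% of all genes. DESeq2 called 0 of the 10, beside 10.2% of all genes. With libraries paired by replicate number, 31% of genes and 0 of the 10 were called, and 4 of the 10 were higher in Dnmt3a1-/- in all 3 pairs, as were 29.5% of all genes. The median log2 fold change of the 10 was 0.92, beside 0.01 over all genes tested.

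Clic6, a member of the chloride intracellular channel family, came nearest to the threshold. Dnmt3a1-/- libraries held 16.4, 9.26 and 12.9 CPM of Clic6, against 6.99, 7.34 and 2.98 CPM in wild type (log2 fold change 1.09 ± 0.36 SE, adjusted p = 0.094). Of Slc4a5 they held 10.9, 4.69 and 9.82 CPM, against 2.94, 3.95 and 0.731 CPM in wild type (1.62 ± 0.60, adjusted p = 0.15). Every Dnmt3a1-/- library lay above every wild type library for both. Reads in no annotated feature did not overlap either, at 10.3% to 10.8% of uniquely placed reads in Dnmt3a1-/- and 9.38% to 10.2% in wild type, and their part in the values was not tested.

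Levels of Aqp1 were 14.1, 6.63 and 10.7 CPM in the Dnmt3a1-/- libraries and 4.74, 6.48 and 1.12 CPM in the wild type ones (1.24 ± 0.61, adjusted p = 0.25). Ttr, with the values above, had a log2 fold change of 1.56 ± 0.81 and an adjusted p of 0.28. Ttr, Clic6, Aqp1 and Slc4a5, 4 of the 10, did not overlap between the groups, and 18.4% of all genes tested were higher without overlap. For Aqp1 the margin was 6.63 against 6.48 CPM.

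The other 6 overlapped. Otx2, the homeodomain transcription factor on which formation of the plexus depends, had levels of 3.06, 1.60 and 3.91 CPM with Dnmt3a1-/- and 1.60, 2.24 and 0.787 CPM in wild type (0.82 ± 0.40, adjusted p = 0.20). Prlr, the prolactin receptor, had levels of 7.75, 4.46 and 11.2 CPM with Dnmt3a1-/- and 4.25, 5.74 and 2.19 CPM in wild type (0.90 ± 0.48, adjusted p = 0.27). Enpp2 had the lowest fold change, 0.40 ± 0.22, with 810, 578 and 769 CPM in Dnmt3a1-/-, against 503, 692 and 440 CPM in wild type. Dnmt3a1-/- replicate 2 was the lowest of its group and wild type replicate 2 the highest of its own for each of these 3.

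Folr1, Kl and Sostdc1 overlapped in the same way. Folr1 had 12.2, 4.34 and 6.98 CPM with Dnmt3a1-/- and 4.25, 5.48 and 1.46 CPM in wild type (0.93 ± 0.59, adjusted p = 0.36). Kl had 23.7, 11.7 and 20.8 CPM with Dnmt3a1-/- and 10.9, 16.6 and 3.60 CPM in wild type (0.79 ± 0.61, adjusted p = 0.46). Sostdc1 had 6.30, 2.44 and 6.22 CPM with Dnmt3a1-/- and 2.54, 4.14 and 1.69 CPM in wild type (0.75 ± 0.48, adjusted p = 0.34). Again Dnmt3a1-/- replicate 2 lay below wild type replicate 2.

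The calls in this comparison depended on which wild type libraries were used. Against all 8 wild type cortex libraries, where 18.9% of genes were called, 4 of the 10 were called, all higher in Dnmt3a1-/-: Clic6 (1.74 ± 0.49, adjusted p = 0.032), Enpp2 (0.71 ± 0.21, 0.034), Aqp1 (1.93 ± 0.56, 0.035) and Slc4a5 (2.51 ± 0.78, 0.047). Without 1 library in turn the count was 0 to 2, where 9.86% to 16.8% of genes were called. It was 2 without Dnmt3a1-/- replicate 2 (Otx2 and Sostdc1), where 11.4% of genes were called. It was 1 without wild type replicate 2 (Enpp2, 12.4% of genes) or 3 (Clic6, 9.86% of genes).

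Because OTX2 binds DNA through a homeodomain whose core motif is TAATCC, the start regions of the genes were searched for it on both strands, as TAATCC or GGATTA. RefSeq sequences of build GRCm38.p6 were used for 10 start regions of 5 of the genes (Kl, Aqp1, Otx2, Slc4a5 and Prlr), each read over the 250 bases before the start. Start regions on 1 chromosome were left out for these genes, but not for the count over all start regions. No start region of Ttr, Enpp2, Sostdc1, Clic6 or Folr1 was read, so the search says nothing of those genes. The motif was present in 1 of the 10, the third of 4 Otx2 starts (chr14:48665110-48665359, minus strand), 211 bases before the start, and in 6.3% of all 32851 start regions. It is shown as the 1 match among these genes, 5′ to 3′ with the motif in capitals:
Otx2 start 3: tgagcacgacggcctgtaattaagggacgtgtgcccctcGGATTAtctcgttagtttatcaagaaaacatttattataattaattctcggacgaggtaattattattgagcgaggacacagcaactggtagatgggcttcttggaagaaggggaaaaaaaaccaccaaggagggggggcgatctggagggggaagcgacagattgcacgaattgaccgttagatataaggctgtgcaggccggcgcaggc
A match is a description of these letters, and gene counts do not tell which start was used.

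In the Dnmt3a2-/- cortex all 10 fold changes over the r series were positive, with a median of 1.70 beside 0 over all genes, and edgeR called 0 of the 10, with 0 at an unadjusted p under 0.05 and 0 by DESeq2. The test called 0.00628% of the genes, 1 in all, and 2.87% had an unadjusted p under 0.05. The 2 libraries of the genotype disagreed for each gene. Kl was at 1.93 and 26.8 CPM in Dnmt3a2-/-, against 6.45 and 1.49 CPM in wild type. Sostdc1 was at 0.902 and 9.45 CPM in Dnmt3a2-/-, against 2.25 and 0.744 CPM in wild type. Folr1 was at 0.840 and 13.0 CPM in Dnmt3a2-/-, against 2.68 and 0.775 CPM in wild type. For all 3, 1 wild type value lay between the mutant values and the other just below the lower one. None of the 10 genes was without overlap, beside 14.8% of all genes higher without overlap.

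The direction in Dnmt3a2-/- rested on replicate 2. Without it all 10 fold changes were negative, from -3.67 for Ttr to -0.10 for Enpp2. Without replicate 1 they were positive, from 0.94 for Enpp2 to 3.45 for Ttr. A lone library is there assumed to vary as the 2 wild type libraries do. Some other marker lists were also higher in Dnmt3a2-/-, with 0 genes called. Of all genes, 14.8% were higher without overlap. Meninges and stroma genes summed to 211 and 290 CPM in Dnmt3a2-/- and 138 and 183 CPM in wild type, with 18 of 18 fold changes positive and 12 without overlap. Unlike the choroid plexus genes, they were above both wild type libraries in replicate 1 too, and in the r series the library higher in Ttr had the lower sum. Oligodendrocyte genes (sums 15400 and 18300 CPM in Dnmt3a2-/-, 15000 and 15000 in wild type) were positive in 13 of 13, with 10 without overlap. Striatal genes (611 and 778 CPM in Dnmt3a2-/-, 545 and 612 in wild type) were positive in 12 of 12, with 6 without overlap. Not all lists were higher, with 0 of 8 cortical excitatory, 1 of 5 endothelium and 2 of 5 microglia genes positive. Of thalamus and habenula genes 2 of 7 were positive, and of hippocampal genes 4 of 10. Positive were 14 of 17 ependymal, 4 of 5 astrocyte and 4 of 6 neuron genes. The part of these lists in the result was not tested.

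In the Dnmt3a1_delta_N cortex all 10 fold changes over the n series were positive (median 0.92, beside 0 over all genes), and edgeR called 0 of the 10, with 0 at an unadjusted p under 0.05 and 0 by DESeq2. It called 0% of the 15881 genes tested, and 7.98% had an unadjusted p under 0.05. With libraries paired by replicate number it called 0.749% of genes and 0 of the 10. Ttr had a log2 fold change of 1.78 ± 1.43 (adjusted p = 0.84), and Clic6, at 8.83, 7.05 and 2.12 CPM in Dnmt3a1_delta_N and 2.08, 4.65 and 1.46 CPM in wild type, had 1.13 ± 0.64 (adjusted p = 0.74). Replicate 3 was low in Dnmt3a1_delta_N and, for Ttr, lowest in wild type too, and wild type replicate 2 was high. Within same-numbered pairs, Ttr, Kl, Clic6, Aqp1, Enpp2 and Slc4a5, 6 of the 10, were higher in Dnmt3a1_delta_N in all 3 pairs, as were 15.5% of all genes tested. Prlr was at 2.92, 3.69 and 0.621 CPM in Dnmt3a1_delta_N, against 0.674, 3.72 and 0.512 CPM in wild type. Slc4a5 had the widest spread here after Ttr, with 3.97, 2.47 and 0.365 CPM in Dnmt3a1_delta_N and 0.646, 2.37 and 0.146 CPM in wild type. Enpp2 had the narrowest, with 598, 490 and 310 CPM in Dnmt3a1_delta_N and 358, 424 and 301 CPM in wild type (0.38 ± 0.24, adjusted p = 0.77). None of the 10 was without overlap, beside 5.74% of all genes higher without overlap. Against all 8 wild type cortex libraries the median was 0.39 and Prlr turned to -0.09.

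**Figure D3:**
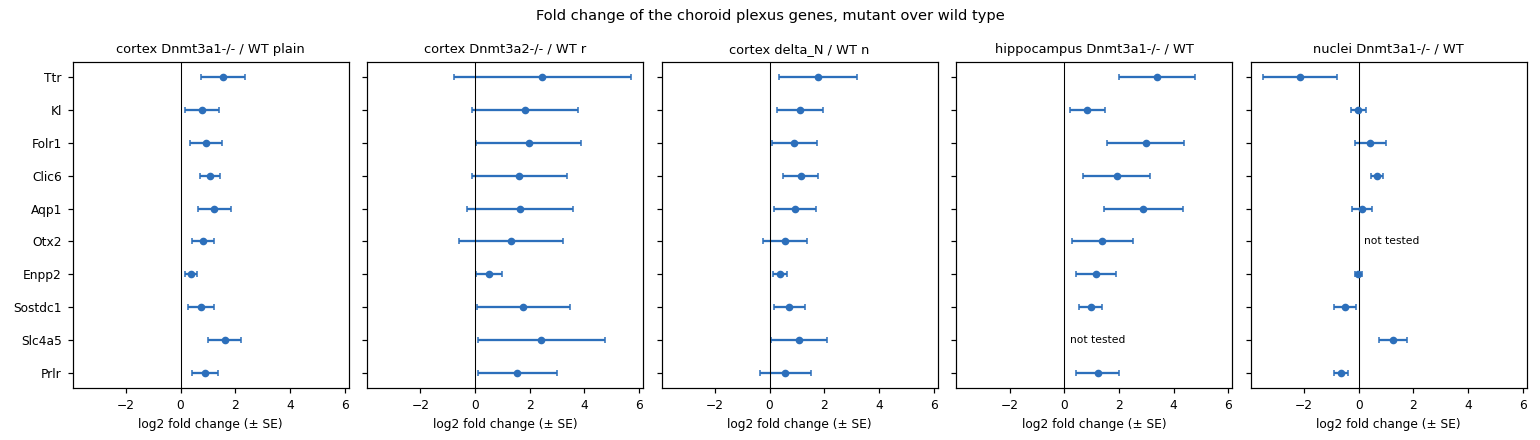
Log2 fold change of mutant over wild type for each gene (edgeR, points) with its SE (bars) in the 5 comparisons; the vertical line is no change. All points lie right of the line in the 4 dissected comparisons and on both sides in nuclei, where Otx2 was not tested (nor was Slc4a5 in hippocampus), and Dnmt3a2-/- has the longest bars, up to 3.23 for Ttr.

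In hippocampus the Dnmt3a1-/- libraries spread further than in cortex. The wild type hippocampus libraries lay close together for Ttr, with a highest over lowest of 1.47, and less so for Otx2 (3.86) and Prlr (3.65). Of the 9 genes tested all 9 had positive fold changes over wild type (median 1.40, beside 0.01 over all genes) and edgeR called 0, where it called 2.52% of all genes. At an unadjusted p under 0.05 there was 1, beside 18% of all genes, and DESeq2 called 0. None was without overlap, beside 13.9% of all genes higher without overlap. Slc4a5, the tenth, missed the minimum of counts for testing, with 2.90, 14.7 and 0.258 CPM in Dnmt3a1-/- and 0.461, 0.673 and 0.478 CPM in wild type. Ttr had the largest fold change, 3.39 ± 1.40 (adjusted p = 0.32).

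Sostdc1 came nearest to a call, at 4.14, 8.14 and 2.28 CPM in Dnmt3a1-/- and 2.54, 2.41 and 2.18 CPM in wild type (0.98 ± 0.42, adjusted p = 0.25). Folr1 had 4.66, 13.1 and 0.516 CPM with Dnmt3a1-/- and 0.461, 0.729 and 0.887 CPM in wild type (2.98 ± 1.41, adjusted p = 0.37). Enpp2 had 417, 968 and 159 CPM with Dnmt3a1-/- and 220, 258 and 196 CPM in wild type (1.16 ± 0.72, adjusted p = 0.49). In each, 2 mutant libraries lay above wild type, and replicate 3 lay below the highest wild type library.

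Clic6 had 6.69, 24.5 and 1.38 CPM with Dnmt3a1-/- and 3.57, 2.75 and 2.18 CPM in wild type (1.92 ± 1.22, adjusted p = 0.50). Aqp1 had 4.75, 19.7 and 0.818 CPM with Dnmt3a1-/- and 1.27, 0.785 and 1.30 CPM in wild type (2.89 ± 1.45, adjusted p = 0.40). Replicate 2 was thus the highest and replicate 3 the lowest of the Dnmt3a1-/- libraries for both, as for Ttr. Kl was at 17.2, 45.3 and 10.8 CPM in Dnmt3a1-/- and had a log2 fold change of 0.85 ± 0.63 (adjusted p = 0.57). Replicate 2 carried much of the difference: without it the median of the 9 was 0.35, with Kl at 0.03 and Ttr at 1.90. Without replicate 3, Folr1 (3.59 ± 0.49, adjusted p = 0.016) and Sostdc1 (1.36 ± 0.29, 0.048) were called, beside 1.37% of all genes. Ependymal genes summed to 54.6, 69.8 and 43.8 CPM in Dnmt3a1-/-, against 55.5, 61.2 and 43.4 CPM in wild type, so they overlapped.

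Striatal genes summed to 139, 144 and 137 CPM in Dnmt3a1-/- hippocampus and to 113, 127 and 129 CPM in wild type hippocampus. Hippocampal neuron genes summed to 830, 801 and 793 CPM in Dnmt3a1-/- and to 962, 993 and 943 CPM in wild type. Reads in no annotated feature were 9.69% to 10.3% of uniquely placed reads in Dnmt3a1-/- hippocampus and 8.41% to 8.74% in wild type hippocampus. None of the 3 measures overlapped between the groups, and their part in the choroid plexus values was not tested.

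The Dnmt3a1-/- effect in cortex minus that in hippocampus was negative for all 10 genes, with Ttr at -1.83 ± 1.54 (adjusted p = 0.99), and edgeR called 0 in a model over both tissues. That model called 0% of 15433 genes, with 5.03% at an unadjusted p under 0.05, 0 of them among the 10, and DESeq2 called 0 of the 10. Without Dnmt3a1-/- hippocampus replicate 2, the difference was positive for 8 of the 10.

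In wild type nuclei, against all 8 wild type cortex libraries, 5 of the 10 were called, all lower, where 79.7% of genes were called and 39.9% called lower. The count is thus near that of genes at large. These were Ttr (log2 fold change -5.58 ± 1.87, adjusted p = 0.022), Otx2 (-3.57 ± 1.11, 0.011), Folr1 (-3.28 ± 0.93, 0.0068), Enpp2 (-1.58 ± 0.27, 0.00015) and Sostdc1 (-1.57 ± 0.62, 0.035). DESeq2 called 7 of the 10 and 56.5% of genes. The sort and the use of nuclei in place of tissue cannot be told apart. Against the plain series alone the count was 8, where 83.9% of genes were called. The median log2 fold change of the 10 was -1.75. It was -1.88 without wild type nuclei replicate 1 and -1.80 without replicate 2, fits that hold a lone nuclei library.

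For Clic6 and Prlr the difference did not pass the test. Clic6 was at 3.35 and 3.62 CPM in wild type nuclei, against a range of 1.12 to 7.34 CPM in the 8 wild type cortex libraries (-0.40 ± 0.63, adjusted p = 0.57), and against the plain series alone it was called lower (-1.06 ± 0.31, 0.0079). Prlr was at 2.73 and 3.81 CPM in wild type nuclei, against 0.512 to 5.74 CPM in cortex (0.11 ± 0.72, adjusted p = 0.89). Both nuclei values of Clic6 and of Prlr lay inside the cortex range. Enpp2 was at 177 and 178 CPM in wild type nuclei, below all cortex libraries, whose lowest held 301 CPM.

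Between the nuclei labelled Dnmt3a1-/- and wild type nuclei, edgeR called 0 of 9 genes tested and 0.246% of all genes. At an unadjusted p under 0.05 there were 3, Clic6, Slc4a5 and Prlr, beside 8.98% of all genes, and DESeq2 called 0. The 9 had a median of -0.01, the same as over all genes, and 4 were positive. Clic6 was at 6.15 and 4.83 CPM in the labelled libraries, against 3.35 and 3.62 CPM in wild type (0.66 ± 0.22, adjusted p = 0.33). Slc4a5, at 0.768 and 0.396 CPM in the labelled libraries and 0.199 and 0.311 CPM in wild type, also did not overlap (1.24 ± 0.51, adjusted p = 0.48).

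Ttr (-2.15 ± 1.34, adjusted p = 0.77), Prlr (-0.65 ± 0.26, 0.45) and Sostdc1 (-0.50 ± 0.39, 0.76) were lower in both labelled nuclei libraries than in both wild type ones. With 2 libraries a side, 18.9% of all genes were higher and 19.6% lower without overlap. Otx2 had 0 counts in both labelled libraries, which allows up to 0.077 and 0.12 CPM (3 counts), against 5 and 2 counts (0.142 and 0.0565 CPM) in wild type, and was not tested. These Otx2 floors cover counting error only. With 1 labelled library left out, the log2 fold change of Ttr was -5.71 (without replicate 1) or -1.35 (without replicate 2). Such a fit holds 1 labelled library and does not measure how labelled libraries vary. The effect on Ttr in nuclei minus that in cortex was -3.65 ± 1.55 (adjusted p = 0.37) in a model added after the data were seen, which called 0.341% of genes.

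Wild type hippocampus and wild type cortex differed in 1 of the 10 genes, where 42% of genes were called and 20.5% called lower. It was Enpp2, at 220, 258 and 196 CPM in hippocampus and 301 to 692 CPM in the 8 cortex libraries (-1.02 ± 0.22, adjusted p = 0.0021). DESeq2 called 2, Enpp2 and Folr1, beside 28.8% of all genes. So did edgeR without wild type r replicate 2, n replicate 1 or n replicate 3, beside 40.6% to 41.2% of all genes. Against the plain series alone 6 were called lower, where 45.3% of genes were called. Kl had the largest positive value, 1.02 ± 0.66 (adjusted p = 0.25), and Ttr the most negative, -1.90 ± 1.14 (adjusted p = 0.21).

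The 10 genes were among the most variable of all between replicates. In the 4 dissected comparisons of mutant and wild type, the dispersion that edgeR estimated for each gene ranked at or above the 99.3rd percentile of all genes for every one of the 10 tested except Enpp2, at the 95.6th to 99.8th. In nuclei the ranks were lower for several, at 21.1 for Enpp2, 67.3 for Clic6 and 73.8 for Kl, and Ttr remained at 99.9. The ranking restates the spread between libraries given above for Ttr.

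Other genes of the plexus followed the same libraries. Among 13948 genes with a mean of at least 1 CPM, likeness to Ttr was measured as Pearson's r of log2(CPM + 1) with group means removed, over the 22 dissected libraries, as a description. The first 20 places held 8 of the 9 genes, led by Folr1 (0.964) and Kl (0.963), with Enpp2 at place 35 (0.835). The median over the 9 was 0.940, beside 0.100 over all genes.

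Outside the 10 genes, those most like Ttr were Kcne2 (r = 0.961), a potassium channel subunit, Cldn2 (0.957), a tight junction protein, Mfrp (0.948), a membrane frizzled-related protein, Kcnj13 (0.942), an inward rectifier potassium channel, and Col8a2 (0.925), a collagen chain. F5 (0.909), coagulation factor V, Slc2a12 (0.909), a sugar transporter, Drc7 (0.906), a part of motile cilia, Lbp (0.905), a lipopolysaccharide binding protein, and Tmem72 (0.884) followed. Of these 10, 7 were on a list of 34 further genes of the choroid epithelium. Place 1 of all went to another gene of that list, 1500015O10Rik (0.98), also known as Ecrg4, whose symbol the naming rule passes over and which was picked out after its value was seen. Of 27 genes of the list that reached the minimum, 18 stood within the first 100 of 13948 places. The list was not drawn up blind to these data, so this count is a description.

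That list of 34, chosen like the other lists with earlier results of these data known, was read in each comparison. In Dnmt3a1-/- cortex 31 of its genes were tested, 25 were positive and the median was 0.53. Beside 17.9% of all genes called, 4 of the 31 were called higher, Slc2a12 (1.13 ± 0.28, adjusted p = 0.034), the cation channel Trpv4 (0.79 ± 0.21, 0.019), the keratin Krt18 (1.42 ± 0.45, 0.047) and the metalloreductase Steap1 (1.64 ± 0.47, rounding to 0.05), and Slc29a4, a monoamine transporter, was called lower (-0.31 ± 0.10, 0.045). In the other dissected comparisons 0 were called: 28 of 29 were positive in Dnmt3a2-/- cortex (median 0.88), 23 of 29 in Dnmt3a1_delta_N cortex (0.27) and 21 of 27 in Dnmt3a1-/- hippocampus (0.88). In nuclei the median was 0.06, with 9 of 17 positive.

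Cells that border the plexus were read by their own lists. In cortex, ependymal genes, of the cells that line the ventricles, summed to 65.6 to 74.3 CPM in Dnmt3a1-/- and to 54.3 to 79.0 CPM in the plain series. Meninges and stroma genes summed to 319 to 346 CPM in Dnmt3a1-/- and to 230 to 450 CPM in the plain series. Of the 18 tested, Lum and Col1a1 were called lower and Cyp1b1 higher, a share near the 17.9% of all genes called. Both sums overlapped between the groups. Those of neuron genes did not, at 2560 to 2720 CPM in Dnmt3a1-/- and 2860 to 3360 CPM in the plain series. Nor did those of endothelium genes, at 605 to 673 CPM in Dnmt3a1-/- and 679 to 770 CPM in the plain series. The sums of the remaining lists overlapped, and the part of these lists in the choroid plexus values was not tested. With group means removed, over the 22 libraries, r with Ttr was 0.88 for the sum of the other choroid list, 0.59 for meninges and stroma, 0.52 for ependyma and 0.35 for oligodendrocytes.

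**Figure D4:**
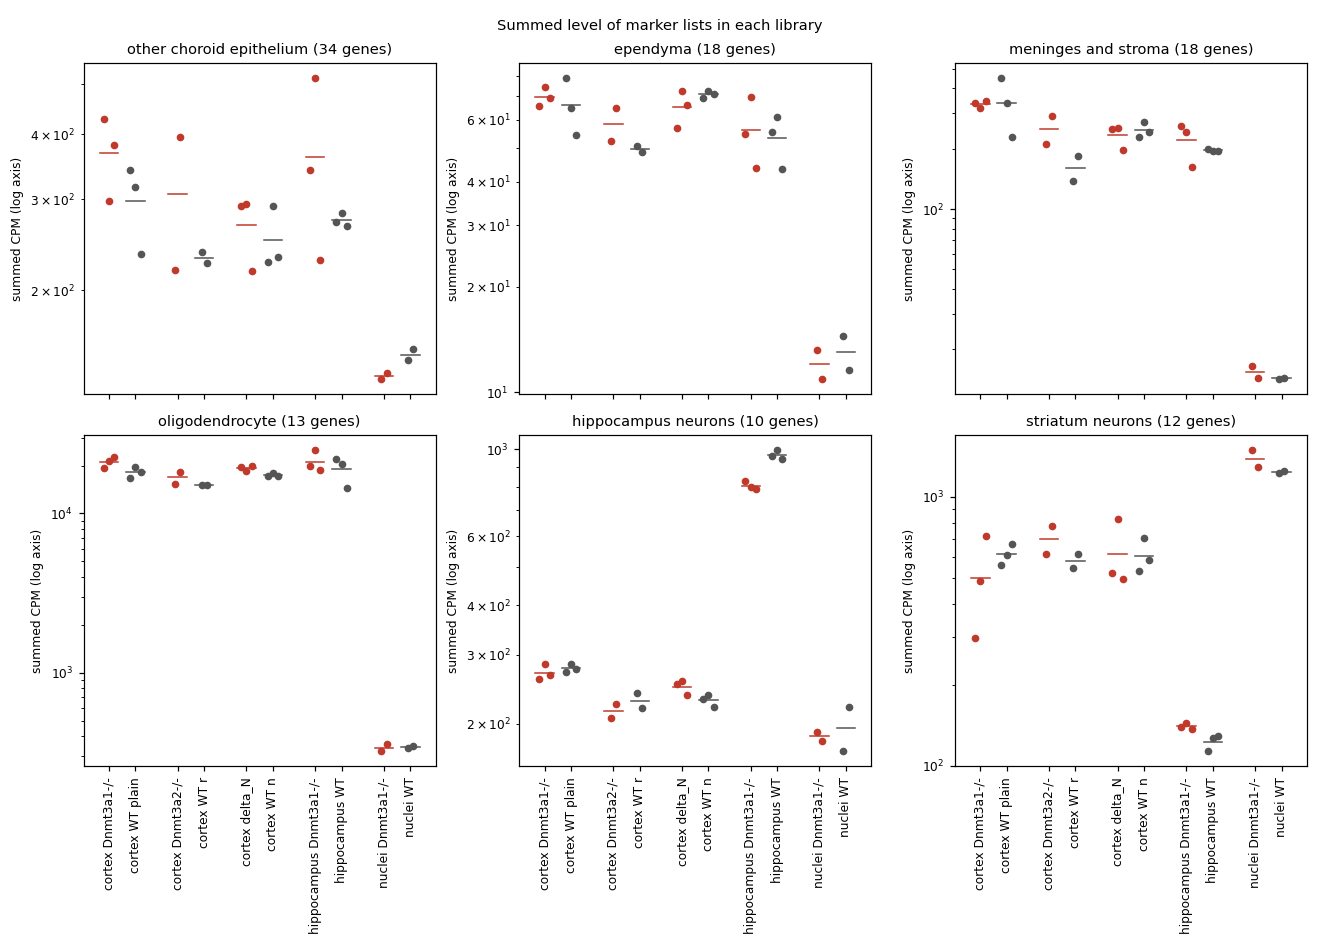
Summed level of 6 marker lists in CPM (log axis) in each library, drawn as in the plot of the 10 genes by library. The other choroid epithelium genes, which are 33 in the cortex and nuclei files, spread from 229 to 513 CPM within Dnmt3a1-/- hippocampus, and ependymal, meningeal and oligodendrocyte genes drop in nuclei.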

How the data were processed

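The deposited files hold counts, whole numbers of reads per gene, 1 library per file. Per the submitters' processing notes the tools were STAR 2.5.4a and HTSeq 0.11.0 and the build mm9, and per the labels' protocols a stranded mRNA kit was used on total RNA. The annotation release and strand setting are not given in the sources used here, so overlapping or antisense genes may share reads. Between 21.1% and 37.0% of reads stood in lines that name no gene and were left out of totals. This share was 28.85% to 30.19% in Dnmt3a1-/- cortex and 27.3% to 28.29% in the plain series. In hippocampus it was 24.31% to 27.22% in Dnmt3a1-/- and 22.71% to 23.73% in wild type. Neither pair of groups overlapped, and the part of this in the values was not tested.

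Computed here were CPM (counts over the gene total) and edgeR 4.0.16 fits (R 4.3.3: filterByExpr, TMM, robust quasi-likelihood F-test), with Benjamini-Hochberg adjustment over all genes tested and a call at an adjusted p under 0.05. SE is |log2 fold change| divided by √F. Cross-tissue fits used the 32601 shared identifiers. DESeq2 1.42.0 was an alternative. The labels do not say that replicates are separate animals, so p-values reflect only how these libraries vary, which may be technical. In data simulated from each comparison, with 200 changed genes, 2-fold and 4-fold changes were recovered in 92% and 99% for Dnmt3a1-/- cortex (14434 genes), 81% and 94% for Dnmt3a2-/- (14610), 92% and 100% for Dnmt3a1_delta_N (14753), 87% and 100% for hippocampus (14203) and 83% and 99% for nuclei (14552). The changed genes were drawn from genes above a minimum mean count, whose dispersion is mostly below that of the 10. Genes with fewer counts were not simulated, so recovery is not known for them.

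The 10 genes, the marker lists and the tests were chosen with earlier results of these data known. Named beside the 10 and Dnmt3a were the 10 genes with the highest r with Ttr and the 3 with the lowest, predicted symbols left out, and up to 4 called genes per list. Pairing by number was checked as the correlation of deviations from group means between libraries of one number: it was 0.278, 0.402 and 0.221 in Dnmt3a1-/- cortex and 0.435, 0.242 and 0.416 in Dnmt3a1_delta_N, all over 0.1, so the numbers were taken as pairs there. That comes from the values, not the labels. In nuclei it was 0.385 for both numbers, which 2 libraries a side make equal, and nuclei were not taken as pairs though over 0.1. Alternatives were DESeq2's size factors, no filter, DESeq2's test, each library left out, a replicate block and other wild type libraries. The other 49 samples of the series were not analysed here.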

Additional observations from a re-analysis of the deposited data

Results flagged for a closer look

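Ttr passed the test in neither comparison, and its libraries did not overlap in opposite directions under the same genotype label. Every Dnmt3a1-/- cortex library (784 to 1920 CPM) lay above every library of the plain wild type series (110 to 705 CPM), and both nuclei libraries labelled Dnmt3a1-/- (2.51 and 0.119 CPM) lay below both wild type nuclei libraries (4.03 and 8.84 CPM). Of all genes, 18.4% were higher without overlap in cortex and 19.6% lower without overlap in nuclei. The effect in nuclei minus that in cortex was -3.65 ± 1.55 on the log2 scale, with an adjusted p of 0.37 (edgeR, a model over both added after the data were seen), so the difference did not pass the test, which called 0.341% of 17305 genes. The nuclei values rest on 98 and 3 counts against 142 and 313. In the 8 wild type cortex libraries no value of the 10 genes stood far enough from the rest to be marked as an outlier.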

How the results depend on the processing

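The calls of the 10 genes depended on the setting in part. Besides the Dnmt3a1-/- cortex calls against all 8 wild type libraries (4 of the 10), fits without a filter on low counts called 1 in Dnmt3a1-/- cortex (Otx2, 0.81, adjusted p = 0.0036) and 1 in hippocampus (Sostdc1, 0.97, 0.0043). They called 15% of all genes in Dnmt3a1-/- cortex. In wild type hippocampus against cortex, DESeq2 called 2 (28.8% of all genes) and the plain series alone gave 6 (45.3%). In wild type nuclei against cortex the plain series alone gave 8 (83.9%). Of all genes tested, the fits without a filter called 0.277% in Dnmt3a2-/-, 0.0706% in Dnmt3a1_delta_N, 3.33% in hippocampus, 1.02% in nuclei and 0.0125% for the difference between tissues. DESeq2 called 0.0303% in Dnmt3a2-/-, 0.183% in Dnmt3a1_delta_N, 1.91% in hippocampus, 0.294% in nuclei and 0.00835% for the difference between tissues. All 8 wild type libraries gave 0.012% in Dnmt3a2-/-. The replicate block called 31% of genes in Dnmt3a1-/- cortex, 0.345% in Dnmt3a2-/-, 0.749% in Dnmt3a1_delta_N, 1.56% in hippocampus and 4.67% in nuclei, and 0 of the 10 in each. The numbers were not taken as pairs in Dnmt3a2-/-, hippocampus and nuclei, though in nuclei the correlation of same-numbered libraries was 0.385.

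With 1 library left out, the share of genes called ran from 9.86% to 16.8% in Dnmt3a1-/- cortex (without wild type replicate 3 and 1), 0.155% to 0.848% in Dnmt3a2-/-, 0% to 0.0123% in Dnmt3a1_delta_N, 0.539% to 4.89% in hippocampus and 0.0245% to 2.23% in nuclei. It ran from 32.2% to 42.1% for wild type hippocampus and from 70.1% to 80.2% for wild type nuclei, both against cortex, and was 0% for the difference between tissues. Of the 10, the counts were 0 to 2 in Dnmt3a1-/- cortex, 0 to 1 in Dnmt3a2-/-, 0 to 0 in Dnmt3a1_delta_N, 0 to 2 in hippocampus, 0 to 1 in nuclei, 1 to 2 for wild type hippocampus and 1 to 6 for wild type nuclei. Where 1 of 2 libraries was left out, the lone one was assumed to vary like the other group.

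Of 921 alternatives for single genes, 46 turned sign. With 1 library left out, the log2 fold changes in Dnmt3a2-/- ranged from -3.67 to 5.36 for Ttr, -1.02 to 3.24 for Kl, -1.01 to 3.12 for Folr1, -0.80 to 2.90 for Clic6, -1.79 to 2.62 for Aqp1, -0.87 to 4.18 for Otx2, -0.10 to 0.94 for Enpp2, -0.70 to 2.76 for Sostdc1, -0.68 to 6.43 for Slc4a5 and -0.65 to 2.43 for Prlr. In nuclei they ranged from -0.07 to 0.04 for Kl, -0.28 to 1.02 for Folr1, -0.33 to 0.74 for Aqp1 and -0.09 to 0.07 for Enpp2. For wild type hippocampus they ranged from -0.51 to 0.36 for Otx2 and -0.67 to 0.08 for Prlr, and for wild type nuclei from -0.13 to 0.39 for Prlr. The difference between tissues ranged from -0.45 to 0.76 for Kl, -1.42 to 0.77 for Clic6, -2.26 to 0.16 for Aqp1, -1.22 to 0.77 for Otx2, -1.20 to 0.08 for Enpp2, -0.61 to 0.41 for Sostdc1, -2.35 to 0.51 for Slc4a5 and -0.79 to 0.60 for Prlr. Other settings turned Prlr to -0.09 in Dnmt3a1_delta_N, Otx2 to 0.02 (DESeq2) and Sostdc1 to -0.34 (plain series) in wild type hippocampus and Prlr to -0.65 (plain series) in wild type nuclei. The cause was not tested. The median correlation with Ttr, 0.946, was 0.936 on the CPM scale and 0.970 with group means removed. Otx2 and Slc4a5 rest on few counts, down to 1 in cortex, and Ttr on 3 in nuclei.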

Other observations

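At the other end of the likeness to Ttr over the 22 dissected libraries stood Ccng1 (r = -0.842), encoding cyclin G1, Pex13 (-0.838), a protein of the peroxisome membrane, and Herc4 (-0.829), a ubiquitin ligase. Ccng1 ran from 61.1 to 111 CPM in cortex and from 46.0 to 60.8 CPM in hippocampus, a far narrower span than that of Ttr. The sum of 10 hippocampal neuron genes had r = 0.64 with Ttr on the same scale, higher than that of ependyma (0.52), and the sum of astrocyte genes had -0.26.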
